A study of Mus musculus with 12 samples.

Results

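The 4 Id genes (Id1, Id2, Id3, Id4) and 6 genes of the BMP-SMAD pathway (Bmp4, Bmpr1a, Smad1, Smad5, Smad6, Smad9) were followed in mouse embryonic stem cells (ESCs) in which the coactivator YAP was lowered or raised. These 10 genes, of 24480 in each expression table, were matched by symbol. They were chosen by the measured rise of Id2 in the YAP libraries of both experiments, so Id2 is given below as a description with no test. The other 9 genes bear on whether this rise came with a change in BMP-SMAD genes.

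RNA was sequenced from E14Tg2a, a feeder-independent line of mouse ESCs grown on gelatin in serum with leukemia inhibitory factor (LIF). All 4 groups were transfected transiently, each with 3 independent libraries. In the knockdown experiment CTR KD cells received scrambled siRNAs and YAP KD cells a mixture of siRNAs against mouse YAP, with RNA taken at the end of the second day (the time for the overexpression is not given in the sources used here). In the overexpression experiment CTR OE cells received a plasmid that the labels describe as encoding GFP, and YAP OE cells a plasmid encoding mouse YAP under the CAG promoter. The Results text of the study calls the CTR OE plasmid empty, and the tables cannot tell these apart. Every library is an average over a whole dish, transfected and untransfected cells together. The experiments share no control library, so a difference between CTR KD and CTR OE cannot be told apart from a difference between siRNA and plasmid transfection.

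BMP ligands such as BMP4 bind paired type I and type II receptors, which phosphorylate SMAD1, SMAD5 and SMAD9. These bind SMAD4 and enter the nucleus, where the Id genes are their best known direct targets, together with Smad6, whose product dampens the pathway in turn. Id proteins have a helix-loop-helix but no DNA-binding region, and they hold E proteins (the products of Tcf3, Tcf4 and Tcf12) away from DNA. In ESCs kept in LIF, BMP4 acts through Id genes to hold back neural differentiation.

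Id2 and Id3 are shown by the 250 bases before their transcription start, since the former moved alike in both experiments and the latter did not. Sequences are from RefSeq on GRCm38.p6 (the build of mm10), where 9 of the 10 genes had an entry and Id1 did not. Each is written 5′ to 3′ on the strand of the gene. Capitals mark GGCGCC, a GC-rich element bound by SMADs that reads alike on both strands, or GGAATG, the TEAD element, here found as its complement CATTCC. Id2 is at chr12:25096093-25096342 on the minus strand and Id3 at chr4:136143572-136143821 on the plus strand.
Id2: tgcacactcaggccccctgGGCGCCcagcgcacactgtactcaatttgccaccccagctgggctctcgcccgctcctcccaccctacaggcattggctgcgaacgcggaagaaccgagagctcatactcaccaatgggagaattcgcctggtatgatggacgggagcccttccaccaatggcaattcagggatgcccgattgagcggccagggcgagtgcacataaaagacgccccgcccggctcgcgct
Id3: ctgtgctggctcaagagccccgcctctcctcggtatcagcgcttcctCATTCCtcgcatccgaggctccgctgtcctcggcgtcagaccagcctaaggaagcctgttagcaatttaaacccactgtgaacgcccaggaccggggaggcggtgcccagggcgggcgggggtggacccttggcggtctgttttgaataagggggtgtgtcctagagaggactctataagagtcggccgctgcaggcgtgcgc
The stretch of Id2 held 1 match to GGCGCC, ending 225 bases before the start, and 0 to GGAATG. The stretch of Id3 held 0 matches to GGCGCC and 1 to GGAATG, ending 197 bases before the start. Matches to GGCGCC were found for 5 of the 9 genes (Id2, Id4, Bmpr1a, Smad5 and Smad9) and to GGAATG for 2 of the 9 (Id3 and Id4). Smad5 had several entries, of which only 1 held the match. These counts are per gene, while the shares that follow are per entry. Of all 32851 RefSeq promoter entries of that length, 9.59% held GGCGCC and 12.6% held GGAATG on either strand. These letters are descriptions of the window and do not show binding.

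Yap1 was read first as a check of the labels. Its level was 116.4, 135.1 and 124.7 CPM (expected counts relative to library size, scaled by TMM factors over the 12 libraries) in CTR KD and 58.5, 54.9 and 56.6 CPM in YAP KD. In CTR OE it was 133.9, 130.2 and 133.5 CPM, and in YAP OE 276.6, 256.1 and 243.8 CPM. The YAP KD libraries were thus all below, and the YAP OE libraries all above, their controls. The knockdown log2 fold change was -1.14 (SE 0.0568, edgeR adjusted p = 4.36e-05), and that of the overexpression was 0.97 (SE 0.0470, adjusted p = 3.47e-08), where plasmid and endogenous reads are counted together. The ESC markers Pou5f1, Sox2, Nanog, Zfp42, Esrrb and Fgf4 summed to between 3236 and 3541 CPM over the 12 libraries, and 0 of these 6 genes were called in either experiment. In YAP KD Nanog, Zfp42 and Esrrb had log2 fold changes of -0.13, -0.13 and -0.16 (edgeR adjusted p = 0.0959, 0.0997 and 0.159). There Fgf4 was at -0.068, Sox2 at 0.027 and Pou5f1 at 0.069. Libraries held between 42926256 and 57240703 expected counts, and no library duplicated another.

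When YAP was lowered, Id1 and Id3 rose, Id2 was higher, and Id4 and the BMP-SMAD genes passed no test. A gene was called at an edgeR adjusted p under 0.05 over all genes tested, and in YAP KD 802 of 14606 genes (5.49%) were called, 2.71% higher and 2.78% lower. Of the 8 members other than Id2 that could be tested, 2 were called, both higher. In 4 of the 8 the 3 YAP KD libraries did not overlap the 3 CTR KD libraries (Id1, Id3 and Bmp4 above, Smad1 below), against 25.7% of all genes tested (12.8% above, 12.9% below).

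**Figure D1:**
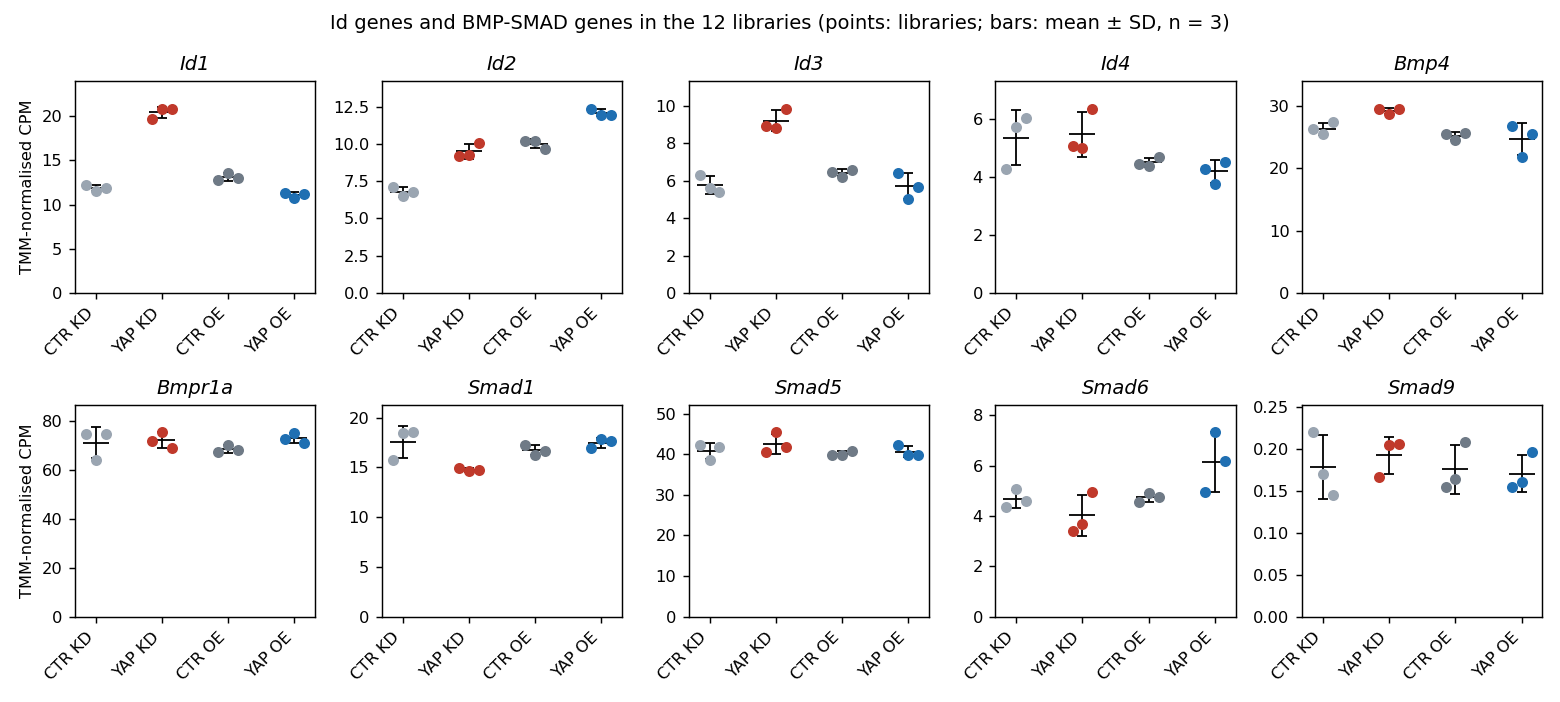
Level of each of the 10 genes in the 12 libraries, in TMM-normalised CPM on an axis that starts at 0 in each panel; points are libraries and bars the mean ± SD of 3. Id1 sits between 19.7 and 20.8 CPM in YAP KD against 11.5 to 12.2 CPM in CTR KD, and between 10.7 and 11.3 CPM in YAP OE against 12.8 to 13.6 CPM in CTR OE. Smad9 stays between 0.145 and 0.219 CPM.

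Id1 (chr2:152736251-152737410) encodes the Id protein best known as a BMP response gene. Its level was 12.2, 11.5 and 11.9 CPM in CTR KD and 19.7, 20.8 and 20.8 CPM in YAP KD. The lowest YAP KD library was far above the highest control. The mean went from 11.9 ± 0.325 to 20.4 ± 0.656 CPM (SD, n = 3), a 1.73-fold rise. Its log2 fold change of 0.79 (SE 0.0540, 95% interval 0.67 to 0.91, edgeR adjusted p = 0.00011) was the fifth smallest p-value of all genes tested. Over the 802 called genes the size of the log2 fold change had a median of 0.34. In bulk RNA a change in the number of cells that express a gene and a change in RNA per cell cannot be told apart, for Id1 as for the genes that follow.

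Id3 (chr4:136143822-136145392), a close relative of Id1, was at 6.32, 5.62 and 5.42 CPM in CTR KD and at 8.95, 8.80 and 9.85 CPM in YAP KD. Here too all YAP KD libraries were above all controls. The mean went from 5.79 ± 0.473 to 9.20 ± 0.569 CPM, a 1.597-fold rise. The log2 fold change was 0.68 (SE 0.0836, 95% interval 0.49 to 0.86, edgeR adjusted p = 0.00234). It passed in the 6 fits that each left out 1 library, and missed the threshold on log2(TPM + 1) and on log2(TPM + 0.1), with adjusted p = 0.0798 and 0.0699.

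Id2 (chr12:25093799-25096092), the gene by whose rise the set was chosen, was at 7.11, 6.49 and 6.75 CPM in CTR KD and at 9.18, 9.26 and 10.1 CPM in YAP KD. The means were 6.78 ± 0.311 and 9.51 ± 0.506 CPM. The log2 fold change was 0.49 (SE 0.0722), or 1.41-fold, smaller than those of Id1 and Id3 in the same libraries. Id4 (chr13:48261116-48266028) was at 4.28, 5.72 and 6.04 CPM in CTR KD and at 5.05, 4.98 and 6.34 CPM in YAP KD. These groups overlapped throughout. Its log2 fold change was 0.037 with a 95% interval from -0.28 to 0.35, wider than that of any other Id gene.

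Some markers of other cells moved with these genes in the knockdown. Of 5 neural markers 4 were tested and 2 were called, both higher. Nes, an intermediate filament gene of neural progenitors, went from 21.9 ± 0.783 to 29.99 ± 0.143 CPM (log2 fold change 0.45, edgeR adjusted p = 0.00073). Tubb3, a tubulin gene of neurons, had a log2 fold change of 0.32 (adjusted p = 0.00975), which was lost without CTR KD replicate 3, YAP KD replicate 1 or YAP KD replicate 2, at 0.29, 0.29 and 0.31. On log2(TPM + 1) and log2(TPM + 0.1) neither call held (Nes at 0.30 on the former with adjusted p = 0.399, and adjusted p = 0.406 on the latter; Tubb3 with adjusted p = 0.4 and 0.433). Sox1 and Pax6, which define neural progenitors, had log2 fold changes of 0.080 and -0.038 and passed no test. The neural list summed to between 83.9 and 89.2 CPM in CTR KD and between 101.4 and 107.2 CPM in YAP KD, and no marker of it was at 0 in all 6 libraries. Its part in the rise of Id1 and Id3 was not tested.

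When YAP was raised, the Id genes did not move together. Id2 was higher, Id1 was lower by a small margin, and Id3 and Id4 passed no test. In YAP OE 316 of 14804 genes (2.13%) were called, 1.66% higher and 0.473% lower. Of the 8 members other than Id2 that could be tested, 1 was called, Id1. The 3 YAP OE libraries did not overlap the 3 CTR OE libraries in 3 of the 8 (Bmpr1a and Smad6 above, Id1 below), against 18.2% of all genes tested (10.3% above, 7.9% below).

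Id1 was at 12.8, 13.6 and 13.02 CPM in CTR OE and at 11.3, 10.7 and 11.2 CPM in YAP OE. All YAP OE libraries were below all controls. The means were 13.1 ± 0.433 and 11.1 ± 0.320 CPM, and the log2 fold change was -0.24 (SE 0.0581, 95% interval -0.36 to -0.12, edgeR adjusted p = 0.0434). This call was marginal. It held in 5 of 13 alternative fits (adjusted p from 0.0203 to 1 over the 13) and, with any 1 of the 6 libraries dropped, in 0, where the log2 fold change ran from -0.26 to -0.22 and the adjusted p from 0.0598 to 0.163.

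Id3 was at 6.47, 6.22 and 6.59 CPM in CTR OE and at 6.43, 5.03 and 5.66 CPM in YAP OE. The first YAP OE library lay within the control range and the other two below it. The log2 fold change was -0.17 (SE 0.0908, 95% interval -0.36 to 0.028, adjusted p = 0.472). Id4 was at 4.44, 4.36 and 4.68 CPM in CTR OE and at 4.28, 3.75 and 4.52 CPM in YAP OE, with overlapping groups and a log2 fold change of -0.096 (95% interval -0.30 to 0.11).

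Id2, again by description only, was at 10.2, 10.2 and 9.66 CPM in CTR OE and at 12.4, 11.96 and 11.95 CPM in YAP OE. All 3 YAP OE libraries were above the controls. The means were 10.01 ± 0.304 and 12.1 ± 0.237 CPM and the log2 fold change was 0.27 (SE 0.0590), or 1.21-fold. The controls themselves stood apart. Id2 was between 6.49 and 7.11 CPM in CTR KD and between 9.66 and 10.2 CPM in CTR OE, so the YAP KD libraries, at 9.18 to 10.1 CPM, reached about the level of the plasmid controls and not that of YAP OE.

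**Figure D2:**
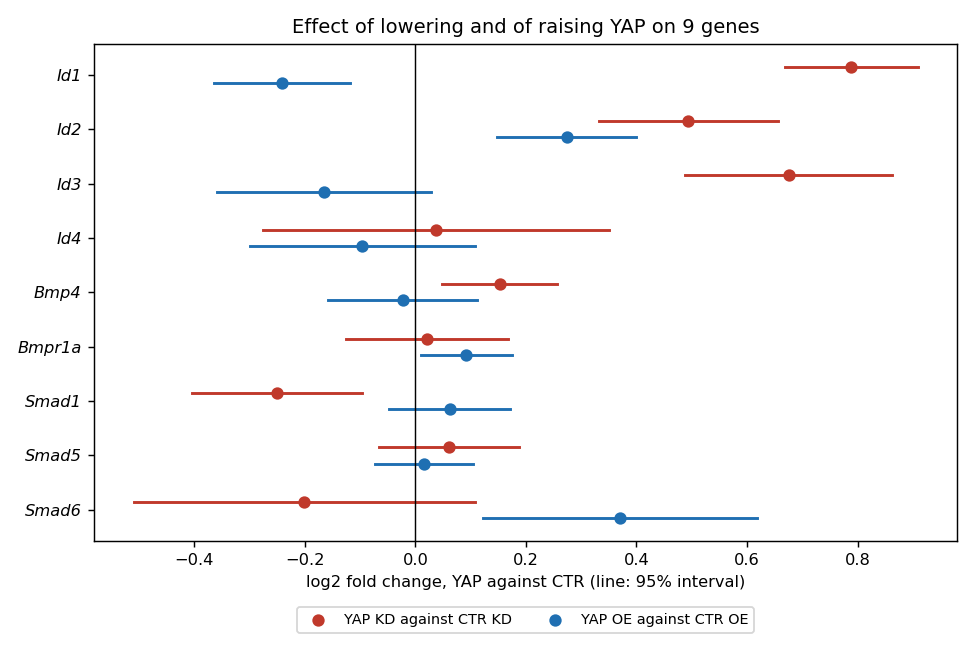
log2 fold change of YAP against CTR for 9 genes in the knockdown (red) and the overexpression (blue), with 95% intervals from the fit of each experiment; Smad9 was too low to be fitted. Id1 and Id3 lie to the right in the knockdown (0.79 and 0.68) and left of 0 in the overexpression (-0.24 and -0.17), while Id2 lies to the right in both (0.49 and 0.27).

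Whether a gene responded differently in the experiments was tested directly, by the knockdown effect minus the overexpression effect in 1 fit over the 12 libraries, in which 8.8% of 15049 genes were called, 3.56% higher and 5.24% lower. YAP was lowered in the knockdown and raised in the overexpression, so a gene that mirrors YAP in both also gives a difference. A call therefore does not tell a mirrored response from other unequal responses. For Id1 the difference of effects was 1.03 on the log2 scale (SE 0.0717, edgeR adjusted p = 4.22e-07) and for Id3 0.84 (SE 0.126, adjusted p = 0.000625). Both held in each of the 4 alternative fits and in the 12 fits that left out a library. For Id4 it was 0.13 with a 95% interval from -0.25 to 0.51. For Id2, with no test, it was 0.22 (SE 0.0850).

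Levels of different genes were compared per kilobase of effective length. In CTR KD the order was Id1 at 15.6 ± 0.416, Bmp4 at 13.96 ± 0.490, Bmpr1a at 13.4 ± 1.18, Id3 at 7.43 ± 0.616, Smad5 at 6.36 ± 0.304, Id2 at 6.18 ± 0.281, Smad1 at 6.11 ± 0.555, Id4 at 3.60 ± 0.629, Smad6 at 1.67 ± 0.130 and Smad9 at 0.0342 ± 0.00726 CPM per kilobase. The ranges of Bmp4 and Bmpr1a overlapped, as did those of Smad5, Id2 and Smad1. Id1 was thus the most abundant Id transcript by length, at 47.5% of the Id sum against 18.8% for Id2.

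The 4 Id transcripts were then summed. The sum was 33.5, 32.2 and 32.7 CPM per kilobase in CTR KD and 49.8, 50.9 and 53.2 in YAP KD. In CTR OE it was 37.6, 38.1 and 37.6, and in YAP OE 37.7, 33.8 and 36.2. The sum was separated in the knockdown and overlapped in the overexpression. Of the difference of 18.5 CPM per kilobase in the knockdown, Id1 made 11.4, Id3 4.45, Id2 2.52 and Id4 0.0871. In the overexpression the difference was -1.87, made of -2.67 from Id1, -0.908 from Id3, -0.204 from Id4 and 1.91 from Id2. The higher Id2 thus offset part of the lower Id1 in the sum.

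**Figure D3:**
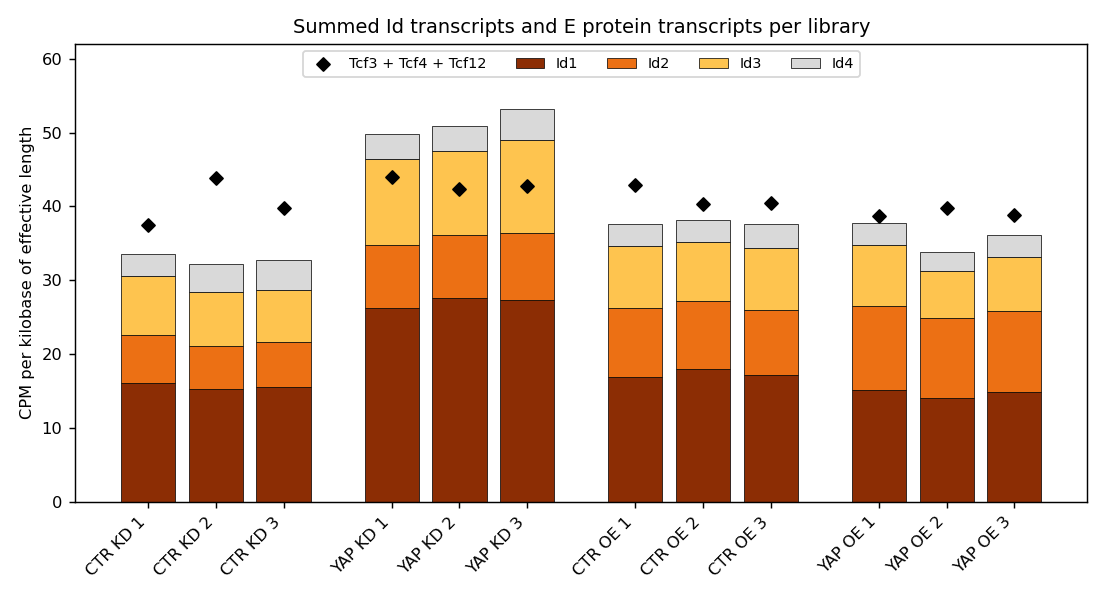
Id1, Id2, Id3 and Id4 stacked for each of the 12 libraries, in CPM per kilobase of effective length, with the sum of the E protein genes Tcf3, Tcf4 and Tcf12 as black diamonds. The stacks reach 49.8 to 53.2 in YAP KD, above the diamonds, and 32.2 to 38.1 in the other groups, where they lie below the diamonds.

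The make-up of the Id sum shifted in opposite ways. The ratio of Id1 to Id2, in CPM, was 1.75 ± 0.0324 in CTR KD and 2.15 ± 0.0895 in YAP KD, and 1.31 ± 0.0539 in CTR OE and 0.917 ± 0.0196 in YAP OE. The share of Id2 in the sum per kilobase was 18.8% in CTR KD, 17.0% in YAP KD, 24.2% in CTR OE and 30.8% in YAP OE. The ratio of Id1 to Id3 changed less, with overlapping ranges in each experiment (2.06 ± 0.130, 2.22 ± 0.124, 2.04 ± 0.123 and 1.96 ± 0.184). The E protein genes, whose products the Id proteins bind, passed no test, with log2 fold changes from 0.078 to 0.16 in YAP KD and from -0.10 to 0.033 in YAP OE. The ratio of the Id sum to the E protein sum was 0.817 ± 0.0798, 1.19 ± 0.0572, 0.916 ± 0.0363 and 0.918 ± 0.0627 in CTR KD, YAP KD, CTR OE and YAP OE. These sums hold Id2, and so no test was made on them.

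Among the genes of the pathway itself, the ligand Bmp4 (chr14:46383525-46390669) was at 26.2, 25.4 and 27.3 CPM in CTR KD and at 29.4, 28.6 and 29.5 CPM in YAP KD. The YAP KD libraries lay above the controls, by a small amount. The log2 fold change of 0.15 (SE 0.0462, 95% interval 0.049 to 0.26) had an adjusted p of 0.0984 and was called in none of the 13 alternative fits. In the overexpression Bmp4 was at 25.4, 24.4 and 25.6 CPM in CTR OE and at 26.8, 21.8 and 25.5 CPM in YAP OE, on both sides of the controls (log2 fold change -0.023, adjusted p = 0.932).

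Bmpr1a (chr14:34411061-34503336) encodes the type I receptor for BMP4. It was between 63.9 and 74.8 CPM in CTR KD and between 68.9 and 75.4 CPM in YAP KD, and its log2 fold change was 0.021 (95% interval -0.13 to 0.17). In the overexpression it was at 67.2, 70.4 and 68.0 CPM in CTR OE and at 72.8, 75.2 and 71.1 CPM in YAP OE. These groups did not overlap, but the log2 fold change was only 0.092 (95% interval 0.0096 to 0.18, adjusted p = 0.302).

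Smad1 (chr8:79338395-79399428), which encodes a SMAD phosphorylated by BMP receptors, was at 15.7, 18.5 and 18.5 CPM in CTR KD and at 14.97, 14.6 and 14.7 CPM in YAP KD. The first control library was close to the YAP KD libraries and the other two were well above them. The means were 17.6 ± 1.599 and 14.8 ± 0.188 CPM, and the log2 fold change was -0.25 (SE 0.0686, 95% interval -0.40 to -0.097, adjusted p = 0.069). Smad1 was called without CTR KD replicate 1 (-0.33, adjusted p = 0.0135), in the fit over 12 libraries (adjusted p = 0.0161) and with no filter beyond 1 count (adjusted p = 0.0454). In the overexpression it was at 17.3, 16.3 and 16.6 CPM in CTR OE and at 16.9, 17.8 and 17.6 CPM in YAP OE, with overlapping groups (log2 fold change 0.062, adjusted p = 0.678).

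The difference of the Smad1 effects was -0.31 on the log2 scale (SE 0.0846, edgeR adjusted p = 0.0297). Of the 12 fits with a library left out, 8 did not call it. Without CTR KD replicate 2 or 3 the difference was -0.28 and -0.28, without YAP KD replicate 2 or 3 -0.31 and -0.31, without CTR OE replicate 2 or 3 -0.29 and -0.31, and without YAP OE replicate 2 or 3 -0.30 and -0.31, so that its size hardly moved while the adjusted p rose to at most 0.0833 in these fits. With the replicate number as a block the call was lost as well (-0.31, adjusted p = 0.0888).

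Smad5 (chr13:56703010-56742378), the other abundant SMAD of this kind, was between 38.6 and 42.2 CPM in CTR KD and between 40.6 and 45.4 CPM in YAP KD, and between 39.8 and 40.8 CPM in CTR OE and between 39.7 and 42.1 CPM in YAP OE. The groups overlapped in both experiments. The log2 fold changes were 0.061 (95% interval -0.065 to 0.19) and 0.016 (95% interval -0.073 to 0.11). The share of Smad1 in the sum of Smad1, Smad5 and Smad9 per kilobase was 48.8% ± 3.22 in CTR KD, 43.6% ± 1.70 in YAP KD, 48.03% ± 0.876 in CTR OE and 48.9% ± 1.47 in YAP OE. The sum itself was 12.5 ± 0.439 and 11.8 ± 0.338 CPM per kilobase in CTR KD and YAP KD, and 12.1 ± 0.189 and 12.4 ± 0.0554 in CTR OE and YAP OE.

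Smad6 (chr9:63953076-64022085) encodes the inhibitory SMAD that BMP signalling induces. It was at 4.34, 5.06 and 4.59 CPM in CTR KD and at 3.42, 3.69 and 4.96 CPM in YAP KD, where the third YAP KD library lay within the control range (log2 fold change -0.20, 95% interval -0.51 to 0.11, adjusted p = 0.487). In the overexpression it was at 4.55, 4.91 and 4.74 CPM in CTR OE and at 4.95, 7.32 and 6.16 CPM in YAP OE. The first YAP OE library was barely above the controls. The log2 fold change was 0.37 (SE 0.116, 95% interval 0.12 to 0.62, adjusted p = 0.141), and Smad6 was called without YAP OE replicate 1 (0.50, adjusted p = 0.0127) and with no filter beyond 1 count (adjusted p = 0.0184). The difference of its effects was -0.57 (SE 0.200, adjusted p = 0.0941). It was called without YAP KD replicate 3 (-0.76) and without YAP OE replicate 1 (-0.71).

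Smad9 (chr3:54755455-54801662), the third SMAD of the BMP branch, had between 7 and 11 expected counts per library and passed the count filter in neither experiment. A change in it was not detectable at this depth. Over the tested members, Id2 included, the median log2 fold change was 0.061 in YAP KD (7 positive, 2 negative) and 0.016 in YAP OE (5 positive, 4 negative), beside 0.0058 and -0.0025 for all genes tested. Id2 is among the positive genes in both by the choice of the set, so the medians and signs are descriptions only.

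A wider list of 48 genes was read for the rest of the pathway. In YAP KD 35 of them were tested and 0 were called by edgeR (3 had an unadjusted p under 0.05) or by limma-voom, and 0 of the 28 to which DESeq2 gave an adjusted p, with a median log2 fold change of -0.0061. In YAP OE 36 were tested and 1 was called, Dusp9, which was higher (11 had an unadjusted p under 0.05), with a median of 0.036. Of all genes tested, edgeR called 5.49% in YAP KD and 2.13% in YAP OE, so the single call in YAP OE was near the share of all genes. For scale, the largest of the 3 unadjusted edgeR p-values in YAP KD (Bambi, 0.0375) ranked 2543 among all 14606 genes tested. In YAP OE the largest of the 11 (Smurf1, 0.0342) ranked 1605 among all 14804. The absolute log2 fold change was under 0.25 for 27 of the 35 and 25 of the 36. The share of all genes under 0.25 was not counted.

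The other BMP ligands were low. Of 12 listed, 5 were tested, and their log2 fold changes were all negative in YAP KD (median -0.18, from -0.68 for Gdf7 to -0.099 for Bmp8a) and all positive in YAP OE (median 0.29, from 0.21 for Bmp8a to 0.33 for Bmp7), but none was called and each gene's groups overlapped. Bmp7, a ligand needed for kidney and eye development, was at 3.28 ± 0.524 CPM in CTR KD, 2.90 ± 0.302 CPM in YAP KD, 2.95 ± 0.145 CPM in CTR OE and 3.70 ± 0.593 CPM in YAP OE. Summed over the 12, the ligands were at 6.74 to 7.55 CPM in CTR KD and 6.05 to 6.24 CPM in YAP KD, and at 7.65 to 8.24 CPM in CTR OE and 9.48 to 10.1 CPM in YAP OE. The expected counts of Bmp8a and Bmp8b were not whole numbers in 11 libraries each, so some of their reads were divided with other genes. Bmp10 was at 0 in the 6 knockdown libraries and Bmp5 in the 6 overexpression libraries.

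Receptors and co-receptors, 9 of 9 tested, had 0 calls in either experiment, with medians of 0.0049 and -0.023. The co-receptor Eng had a log2 fold change of -0.28 in YAP KD (adjusted p = 0.101; called only in the fit over 12 libraries), and the receptors Acvrl1 and Bmpr1b had 0.42 and -0.37 in YAP OE (adjusted p = 0.31 and 0.315). The common SMAD and the intracellular inhibitors, 7 of 7 tested, had 0 calls, including Smad4 (-0.087 and 0.032), the inhibitory Smad7 (-0.11 and 0.028) and the pseudoreceptor gene Bambi (-0.16 and 0.040). Of 11 extracellular antagonists 7 were tested in YAP KD and 8 in YAP OE, with 0 calls, and these reached 0.49 for Nbl1 in YAP KD and 0.82 for Grem1 in YAP OE (adjusted p = 0.37 and 0.281). Eng, Bambi and Smad7 are themselves known to respond to BMP.

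**Figure D4:**
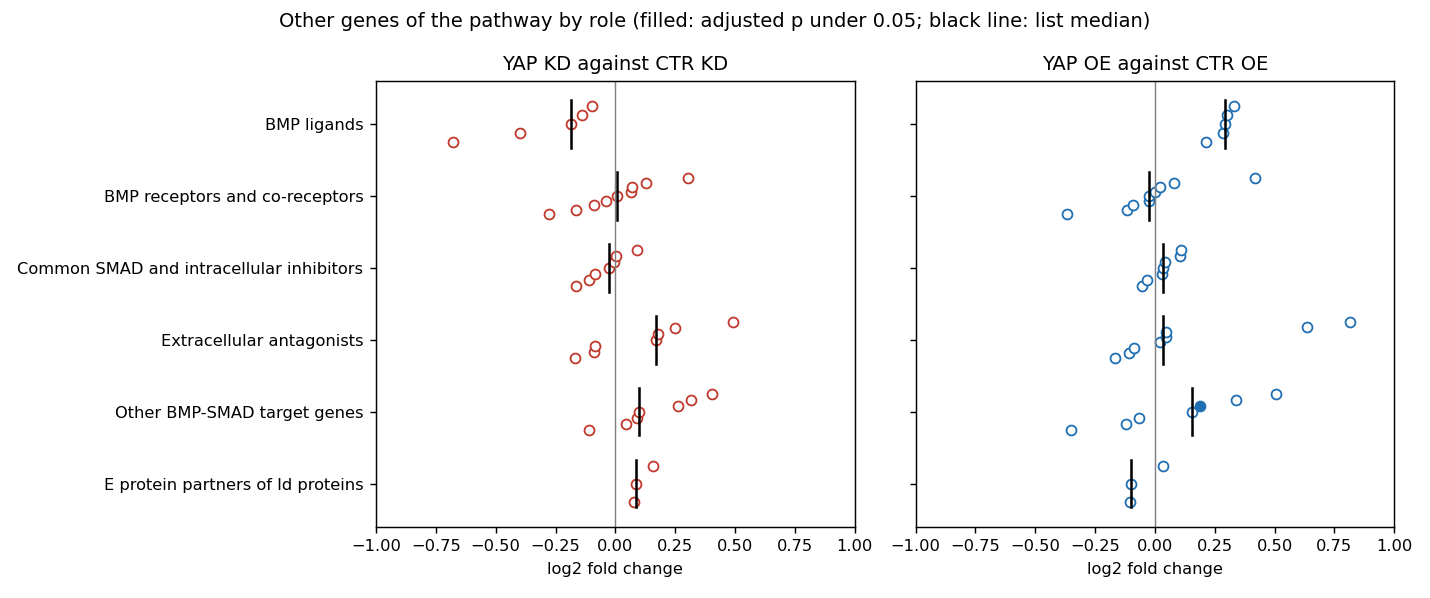
log2 fold change of each tested gene of the pathway lists and of the E protein genes, by role, in the knockdown (left) and the overexpression (right); circles are genes, black lines list medians, and a filled circle marks an adjusted p under 0.05. The ligands lie left of 0 in YAP KD (median -0.18) and right of it in YAP OE (median 0.29), and Dusp9 is the filled point.

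Of 9 further BMP-SMAD target genes, 7 were tested and the median log2 fold change was 0.10 in YAP KD and 0.16 in YAP OE. Dusp9, a phosphatase gene through which BMP lowers ERK activity in ESCs, was at 79.7 ± 1.45 CPM in the CTR OE libraries and at 90.9 ± 5.62 CPM with YAP raised (log2 fold change 0.19, SE 0.0447, adjusted p = 0.0377). It was called in 10 of 13 alternative fits and, with a library left out, in 1 of 6, being lost without CTR OE replicate 1, 2 or 3 and without YAP OE replicate 2 or 3 (0.14 to 0.20). In YAP KD it was 0.045. Hey1, a repressor gene induced by BMP and by Notch, was between 2.63 and 2.95 CPM in CTR KD and between 3.08 and 3.83 CPM in YAP KD, and between 2.86 and 3.19 CPM in CTR OE and between 2.29 and 2.61 CPM in YAP OE. Its groups did not overlap in either experiment. Its log2 fold changes were 0.32 and -0.35 (adjusted p = 0.142 and 0.144), and their difference of 0.67 was called (SE 0.149, edgeR adjusted p = 0.0108) in that fit, its 4 alternatives and the 12 fits that left out a library. Msx1, Msx2, Gata2, Junb and Hes1 passed no test in either experiment. In YAP OE Gata2 (0.51) and Msx2 (0.16) lay above, and Junb (-0.12) below, all their controls (edgeR adjusted p = 0.256, 0.814 and 0.253). Of all genes tested, groups did not overlap in 25.7% in YAP KD and 18.2% in YAP OE.

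In the overexpression, too, some markers of other cells moved. Tubb3 had a log2 fold change of -0.20 (adjusted p = 0.0353), lost without CTR OE replicate 1, 2 or 3 or YAP OE replicate 2 (-0.22 to -0.16) and in 4 of 13 alternative fits (total counts, both TPM scales and the fit over 12 libraries). The other neural markers tested were not called. Pax6 was at -0.21, Nes at -0.12 and, in the other direction, Sox1 at 0.25 (edgeR adjusted p = 0.0819, 0.235 and 0.58). The neural list summed to between 92.6 and 93.0 CPM in CTR OE and between 82.2 and 84.2 CPM in YAP OE. Tubb3 was the largest part of these sums, at 45.5 ± 1.56 CPM in CTR OE and 39.7 ± 1.89 CPM in YAP OE. Of 7 trophoblast markers 6 were tested in YAP OE and 3 were called, all higher: Cdx2 (2.05), Gata3 (1.84) and Krt18 (0.53). That list summed to between 48.9 and 55.0 CPM in CTR OE and between 64.0 and 82.6 CPM in YAP OE. Most of the sum was Krt18, at 43.7 ± 3.54 CPM in CTR OE and 63.1 ± 7.64 CPM in YAP OE, while Cdx2, the defining factor of the list, reached only 0.628 ± 0.0196 CPM. In CTR OE Cdx2 was at 0.102 to 0.227 CPM, about its level in CTR KD (0.0830 to 0.226 CPM), and in the knockdown it was too low to be tested. It thus passed the count filter through the YAP OE libraries, where it was high, which limits what its call can show. In the knockdown 3 trophoblast markers were tested with 0 calls, and the list summed to 31.7 to 36.4 CPM in CTR KD and 37.5 to 37.7 CPM in YAP KD. The part of any cells carrying these markers in the levels of Id1, Id2 and Dusp9 was not tested.

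The genes most like Id1, Id2 and Id3 were found by the Pearson correlation of log2 CPM over the 12 libraries, after the mean of each experiment was taken away, among 12395 genes. The libraries share their groups, so the values describe these libraries and carry no p. Most like Id1 were Slc25a4 (0.98), Esam (0.97), Sms (0.97), Manba (0.97) and Nes (0.97). Most like Id3 were Baz1b (0.98), Cgnl1 (0.96), Prkch (0.95), Fam19a4 (0.95) and Id1 (0.95). Of these genes Esam, an adhesion molecule of endothelium, had the largest log2 fold change in YAP KD, at 1.151, and was at -0.39 in YAP OE, values that its choice by likeness to Id1 makes a description only.

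Id2 had other neighbours, namely Rpl39l (0.94), Bbs4 (0.93), Ak4 (0.93), Prelid2 (0.92) and Hmga2 (0.92). Ak4, a mitochondrial adenylate kinase gene, had log2 fold changes of 0.37 in YAP KD and 0.29 in YAP OE, and Rpl39l, a ribosomal protein paralog gene, had 0.32 and 0.21. Since these genes were picked for following Id2 in the same libraries, the values are descriptions. With Id2 itself, Id1 had r = 0.68 and Id3 r = 0.70, and 382 and 324 were their ranks among the genes most like Id2. Smad1 stood opposite, with r = -0.87 to Id1 and -0.90 to Id3. With a prior count of 5 in place of 1 the 5 nearest genes of each stayed the same.

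**Figure D5:**
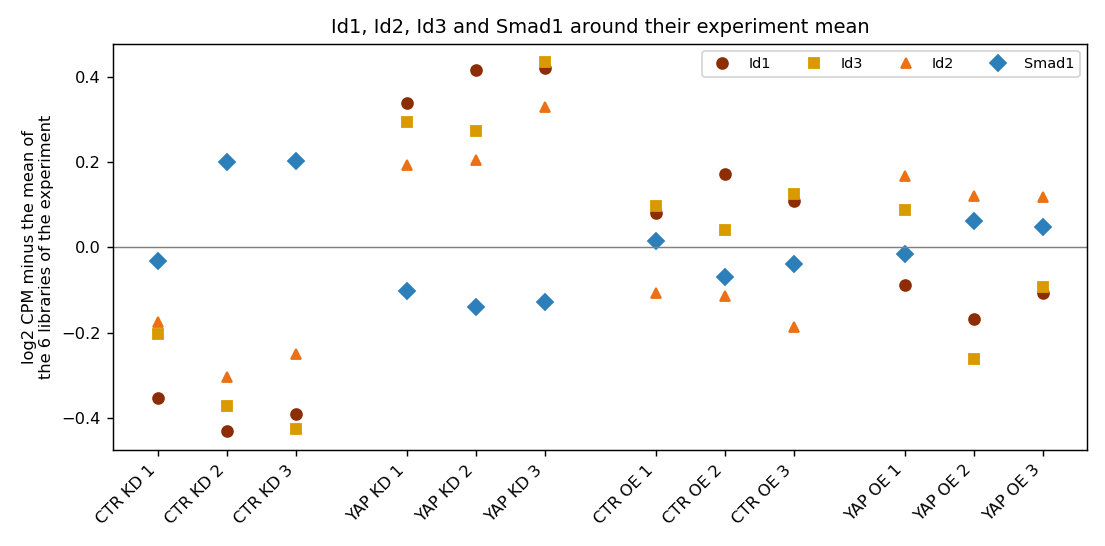
log2 CPM of Id1, Id3, Id2 and Smad1 in the 12 libraries, each minus the mean of the 6 libraries of its experiment (0 on the vertical axis). Id1 and Id3 lie above 0 in YAP KD, and Id1 lies below 0 in YAP OE, while Id2 lies above 0 in the YAP libraries of both; Smad1 lies below 0 in YAP KD.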

How the data were processed

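RNA-Seq tables of 12 mouse ESC libraries (4 groups of 3, per the labels from independent experiments) were used. The authors aligned reads with STAR to mm10 and quantified curated RefSeq genes with RSEM. Versions and the strand setting are not given in the sources used here, so antisense reads could not be told apart. The deposited expected counts are estimated counts per gene, not normalized, and a read shared by several genes is divided between them. The deposited TPM values are length-scaled and served only in alternatives. Deposited effective lengths gave CPM per kilobase, and deposited FPKM was not used.

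Expected counts were rounded. Each experiment was fitted on its 6 libraries with edgeR 4.0.16 (R 4.3.3): filterByExpr, TMM factors and the two-sided quasi-likelihood F test, with Benjamini-Hochberg adjustment over all genes kept. The difference of effects was tested in 1 fit over 12 libraries. The SE is the absolute log2 fold change divided by the square root of F. edgeR's biological coefficient of variation was 5.66% (knockdown) and 4.43% (overexpression). Printed CPM share TMM factors over the 12 libraries. Of replicate pairs, none agreed within counting error (chi-square from 3.39 to 24.2 per degree of freedom). P-values measure the spread between these libraries.

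Members, gene lists and markers were chosen with earlier results of these data known. Named were the members, Yap1, genes of the lists, and for Id1, Id2 and Id3 the 5 genes of highest correlation (prior count 1, mean expected count of at least 50). The lists were BMP ligands, receptors, intracellular and extracellular inhibitors, other targets, E proteins, and markers of ESC, primitive endoderm, trophoblast, mesoderm, neural cells and fibroblasts. The alternatives were relative log expression, upper-quartile and total-count scaling; no filter beyond 1 count or at least 1 CPM in 3 libraries; DESeq2 1.42.0 and limma-voom (limma 3.58.1); limma-trend on log2(TPM + 1) and log2(TPM + 0.1); 1 fit over 12 libraries; a replicate block; and each library left out. Taking out a lowess trend with gene length (span 0.3), alone and with the block, was added after the data were seen. The scripts were tested on simulated counts.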

Additional observations from a re-analysis of the deposited data

Results flagged for a closer look

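The results below are genes whose effect differed between the knockdown and the overexpression, by the test of that difference (knockdown log2 fold change minus overexpression log2 fold change, edgeR quasi-likelihood, Benjamini-Hochberg over 15049 genes, 12 libraries). Among the members these were Id1 at 1.03 (adjusted p = 4.22e-07), Id3 at 0.84 (adjusted p = 0.000625) and Smad1 at -0.31 (adjusted p = 0.0297). Id1 was higher in 3 of 3 YAP KD libraries and lower in 3 of 3 YAP OE libraries than all controls, whereas 1 of 3 YAP OE libraries of Id3 lay within its controls. Yap1 itself differed by -2.11 (adjusted p = 5.34e-10), as the treatments set it to. Hey1, a BMP and Notch target, differed by 0.67 (adjusted p = 0.0108).

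Among the markers, the neural genes Nes and Tubb3 differed by 0.57 (adjusted p = 2.63e-05) and 0.52 (adjusted p = 0.000444), the trophoblast genes Cdx2 and Krt18 by -2.04 (adjusted p = 0.0227) and -0.40 (adjusted p = 0.0358), and the mesoderm gene Tbx6 by 1.57 (adjusted p = 0.0195). Cdx2 had only 4 to 34 expected counts per library and passed the count filter through the YAP OE libraries, where it was high. The calls of Cdx2, Krt18 and Tbx6 did not hold in 3, 8 and 4 of the 12 fits with a library left out, over which the values ran from -2.48 to -1.63, from -0.49 to -0.32 and from 1.36 to 1.75. With the replicate number as a block these calls and that of Smad1 were lost (adjusted p = 0.078, 0.063 and 0.0851, and 0.0888 for Smad1). Tbx6 had only 8 to 26 expected counts per library and was called in neither experiment alone (edgeR adjusted p = 0.214 in YAP KD and 0.166 in YAP OE). Its controls also stood apart, at 0.211 ± 0.0399 CPM in CTR KD and 0.454 ± 0.0746 CPM in CTR OE.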

How the results depend on the processing

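Under the alternatives, no called result changed direction. On log2(TPM + 1) and log2(TPM + 0.1), 74 and 47 genes were called in YAP KD, and 87 and 68 in YAP OE, where the share called higher went from 77.8% to 93.1% and 94.1%. The members called in YAP KD were then 1 on either TPM scale, Id1, in place of 2. In 1 fit over 12 libraries YAP KD had 1261 calls, and with no filter beyond 1 count YAP OE had 556 calls and 2 members called (Id1 and Smad6). The members called in YAP OE were 0 under upper-quartile factors, total counts, DESeq2, limma-voom and both TPM scales. The causes were not tested. Over the fits that each left out 1 library, the calls in YAP KD ran between 298 when CTR KD replicate 3 was dropped and 1019 when CTR KD replicate 2 was dropped, those in YAP OE from 154 (without CTR OE replicate 3) to 327, and those for the difference of effects from 943 to 1490. The members called ran from 2 to 3 in YAP KD and from 0 to 1 in YAP OE, the 1 being Smad6 without YAP OE replicate 1. Without a library of a group, its other libraries were taken to vary like the rest. Id2 was at 0.38 in YAP KD on log2(TPM + 1), against 0.49. Of the values of single genes with an adjusted p, 813 stayed on their side of the threshold, 66 lost the call and 8 gained it. Direction was compared only where a call was involved, and uncalled values near 0 could change sign. Over the fits with a library left out, the log2 fold change of Id4 in YAP KD ran from -0.0996 to 0.130.

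Replicate numbers are shared between groups. Deviations of same-numbered libraries from their group means correlated at -0.26, -0.086 and -0.016 in the knockdown and at 0.020, 0.051 and 0.059 in the overexpression. Libraries of different numbers ran from -0.12 to 0.19 in the knockdown and from -0.057 to 0.0061 in the overexpression. The numbers thus showed no pairing in the knockdown, and a weak pairing in the overexpression could not be told from none. With the replicate number as a block, 193 genes were called in YAP KD (204 with the length trend also removed) and 784 for the difference of effects, and the members called in YAP OE were 0 with the block, with or without the length trend. Depth limits Smad9 most. Id4 and Smad6 had at least 164 and 144 expected counts per library, and in some groups their libraries spread widely. Id4 was at 5.34 ± 0.938 CPM in CTR KD and Smad6 at 6.15 ± 1.18 CPM in YAP OE.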

Other observations

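Markers of other lineages passed no test beyond those already described. Of 6 primitive endoderm markers 5 were tested in YAP KD and 6 in YAP OE, with 0 calls and medians of 0.14 and 0.050. Of 5 mesoderm markers 4 were tested in each, with 0 calls and medians of -0.20 and -0.33. Of 5 fibroblast markers 4 were tested in each, with 0 calls and medians of 0.41 and -0.096. The collagen gene Col1a1 was at 0.528 ± 0.240 CPM in YAP KD against 0.235 ± 0.0712 CPM in its controls. These groups overlapped (edgeR adjusted p = 0.158), and Col1a1 had only 7 to 38 expected counts per library. The log2 fold changes in YAP KD were 0.726 for Col1a2, 0.102 for Thy1 and, in the other direction, -0.21 for Col3a1. Summed, the fibroblast list lay between 1.89 and 2.14 CPM in CTR KD and between 2.37 and 3.11 CPM in YAP KD.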
